A study of Mus musculus with 12 samples.

Results

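The respiratory chain and ATP synthase genes of both genomes were examined in mouse dorsal root ganglia. Members were chosen by symbol alone. They were the genes whose names begin with mt-Nd, mt-Co, mt-Cytb or mt-Atp, and the nuclear genes named as Nduf, Sdh, Uqcr, Cox4 to Cox8 or Atp5 subunits, with pseudogene names left out. The rule took 95 of 49315 genes, 13 of them encoded in mitochondrial DNA and 82 in the nucleus. Enough reads for a test were found for 93 members, all 13 mitochondrial and 80 nuclear, and Cox7b2 and Cox8c fell under the filter on low counts.

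Bulk RNA sequencing was done on pooled ganglia, 8 per animal, from 12 mice aged 10 months. The Nf2 group was Postn-Cre(+);Nf2 flox/flox (n = 6 mice), and the DKO group had the same alleles together with Fak1 flox/flox (n = 6 mice). Both groups therefore carried the Cre and the floxed Nf2 alleles, and they differed by the floxed Fak1 alleles (Fak1 is encoded by Ptk2). Each genotype held 3 mice labelled male and 3 labelled female, and no mouse with intact Nf2 was part of the comparison. Postn-Cre acts in Schwann cells and their precursors, whereas the ganglia also hold sensory neurons, satellite glia, macrophages, vessels and connective tissue. In such tissue, fewer cells of a type and less RNA per cell cannot be told apart.

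Oxidative phosphorylation passes electrons from NADH and succinate through complexes I and II to ubiquinone, on through complex III to cytochrome c, and through complex IV to oxygen, and complex V uses the proton gradient that results to make ATP. Complexes I, III, IV and V are built from subunits of both genomes, while complex II is encoded wholly in the nucleus. The mitochondrial genes are transcribed as long polycistronic RNAs that are cut at the tRNAs between them, and the nuclear genes each have their own promoter. Sensory neurons, with their long axons, draw heavily on this pathway.

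The sequences below show that some mitochondrial genes have near-identical partners elsewhere in the genome, which bears on how their reads can be assigned. Copies of mitochondrial DNA lie in the nuclear genome of the mouse, and 1 of them on chromosome 1 repeats a run of neighbouring mitochondrial genes. The first 60 bases of mt-Co2 and of mt-Nd3 are set against the start of the copy of each, with positions counted from 1 at the first base of the gene, and the only base that differs is in capitals. The mitochondrial genes lie on the plus strand at chrM:7013-7696 and chrM:9459-9806, and the copies on the minus strand at chr1:24614885-24615565 and chr1:24612775-24613119 (GRCm38, GENCODE M21, both annotated as unprocessed pseudogenes).
mt-Co2: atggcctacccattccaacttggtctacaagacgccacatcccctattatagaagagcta
Gm28661: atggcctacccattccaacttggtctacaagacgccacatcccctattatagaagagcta
mt-Nd3: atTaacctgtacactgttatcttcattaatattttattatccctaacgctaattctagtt
Gm28438: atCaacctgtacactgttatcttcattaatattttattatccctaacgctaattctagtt
Over its whole 681 bases, Gm28661 had 0 mismatches to mt-Co2. Over 345 bases, Gm28438 had 1 mismatch to mt-Nd3, T3C.

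The promoters below are single examples from the nuclear genes of the pathway. They belong to Cox6a1 and Cox8a, the complex IV isoforms found in most tissues, and to Cox8b, the isoform of heart, skeletal muscle and brown fat, which was among the members with the largest genotype difference. Each runs from 250 bases before to 50 bases after the gene start (RefSeq, GRCm38.p6), at chr5:115348909-115349208, chr19:7217567-7217866 and chr7:140900397-140900696, all on the minus strand. Capitals mark matches to the NRF1 motif, 10 letters with 1 free position, and to the ETS motif CCGGAAG, the core bound by GABP, on either strand.
Cox6a1: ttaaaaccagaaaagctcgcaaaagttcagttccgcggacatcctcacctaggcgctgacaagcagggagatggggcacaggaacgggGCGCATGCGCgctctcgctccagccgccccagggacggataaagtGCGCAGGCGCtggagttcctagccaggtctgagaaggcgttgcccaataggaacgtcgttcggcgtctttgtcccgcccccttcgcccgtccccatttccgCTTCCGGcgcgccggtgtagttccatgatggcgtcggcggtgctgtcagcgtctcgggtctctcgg
Cox8a: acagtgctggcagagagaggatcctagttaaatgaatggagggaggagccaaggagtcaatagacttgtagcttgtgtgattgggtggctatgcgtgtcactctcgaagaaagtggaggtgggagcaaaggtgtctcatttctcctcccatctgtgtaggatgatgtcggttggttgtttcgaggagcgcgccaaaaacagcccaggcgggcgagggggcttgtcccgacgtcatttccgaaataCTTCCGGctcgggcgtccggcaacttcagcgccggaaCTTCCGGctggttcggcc
Cox8b: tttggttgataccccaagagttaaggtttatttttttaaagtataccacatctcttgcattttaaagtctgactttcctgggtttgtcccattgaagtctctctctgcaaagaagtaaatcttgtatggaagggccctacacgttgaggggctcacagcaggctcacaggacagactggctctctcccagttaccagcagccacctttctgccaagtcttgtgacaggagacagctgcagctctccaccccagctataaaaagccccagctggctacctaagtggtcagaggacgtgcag
A promoter was found for 66 of the 82 nuclear members, and not for Cox6a2. The NRF1 motif was present in 25.8% of these 66 and in 5.19% of all 27025 genes with a promoter of the same length. The ETS motif was present in 24.2% against 9.93%. A gene with several promoters was counted if any of them held the motif. The YY1 motif AAGATGGCG was found in 10.6% against 1.64%, and the ERR motif TCAAGGTCA in 3.03% against 0.466%. The E-box CANNTG, bound among others by the myogenic factors, was found in 69.7% of the members and in 75.0% of all genes with a promoter. None of the first 4 motifs was in the windows of Cox8b, Cox7a1 or Cox7a2, and a match or its absence says only which letters these windows hold.

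The 12 libraries held 21129191 to 41250329 counts assigned to genes. Of the floxed genes, only Ptk2 differs between the groups by design, and it gave a weak check of the labels. Ptk2 was at 65.8 to 75.5 CPM (read count scaled to the library's total) in the Nf2 mice and 46.5 to 76.0 CPM in the DKO mice, and the genotypes overlapped (log2 fold change -0.15, SE 0.10, adjusted p 0.529, edgeR's quasi-likelihood test). Cells that do not express the Cre keep Ptk2 intact, and their part in this overlap was not tested. Nf2 mouse 702, labelled male, had Xist at 496 CPM and Ddx3y at 0.525 CPM, which goes against its label, so the counts of genes by sex are given with and without it. Nf2 mouse 649 and DKO mouse 887 had the highest mitochondrial levels of their genotypes, and the sums and main differences are given with and without them. This pair was chosen after these levels were seen, so spreads and p-values without them are not independent of the choice.

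Among the 13 mitochondrial genes, 7 were counted abundantly and 6 hardly at all. Per kilobase of gene length, the mean over the 12 mice was 8034 CPM for mt-Co1 (a core subunit of complex IV), 4429 for mt-Cytb (complex III), 3855 for mt-Nd1, 1855 for mt-Nd2, 1690 for mt-Nd5, 1360 for mt-Nd4 and 1181 for mt-Nd6, all core subunits of complex I. The other 6, mt-Co2, mt-Atp8, mt-Atp6, mt-Co3, mt-Nd3 and mt-Nd4l, lie side by side at chrM:7013-10173 and were at 0.228 to 5.16 CPM each. Their sum was 6.79 to 20.4 CPM, or 0.0322 to 0.0478% of the mitochondrially encoded counts of a mouse. Thus mt-Co1 was counted at 8483 to 24584 CPM and its complex IV partner mt-Co2, transcribed from the same strand, at 0.788 to 2.84 CPM in the same libraries.

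The low genes were mostly those with a copy in the nuclear genome. Of all stretches of 100 bases in mt-Co2, mt-Atp6, mt-Co3, mt-Nd3 and mt-Nd4l, 97.6 to 99.9% occurred letter for letter in a transcript of another annotated gene. The share was 60.8% in mt-Nd4, whose copy Gm28439 matches its first 876 bases without a mismatch, 30.8% in mt-Co1 and 3.19% in mt-Nd2. It was 0% in mt-Nd1, mt-Nd5, mt-Nd6 and mt-Cytb. The exception was mt-Atp8, at 0.581 to 3.12 CPM with 0% shared with an annotated gene. It lies after mt-Co2 at chrM:7766-7969, and its end overlaps the start of mt-Atp6 (chrM:7927-8607). This overlap is too short to hold a stretch of 100 bases, and how reads in it were counted is not given. On chromosome 1, Gm10925, the copy of mt-Atp6, ends at 24614651, and Gm28661, the copy of mt-Co2, begins at 24614885. No gene is annotated between these copies. The copies themselves carried few counts, from 0.507 to 2.32 CPM for Gm29216, the copy of the end of mt-Co1, to 12.3 to 41.4 CPM for Gm28438. How reads with several equal matches were counted is not given in the sources used here, and its part in the low values was not tested. The counts of these 6 genes, and in part of mt-Nd4 and mt-Co1, are therefore uncertain as levels. A further limit touches mt-Nd6, which lies on the opposite strand from the other 12: whether strand was used in counting is not stated.

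**Figure D1:**
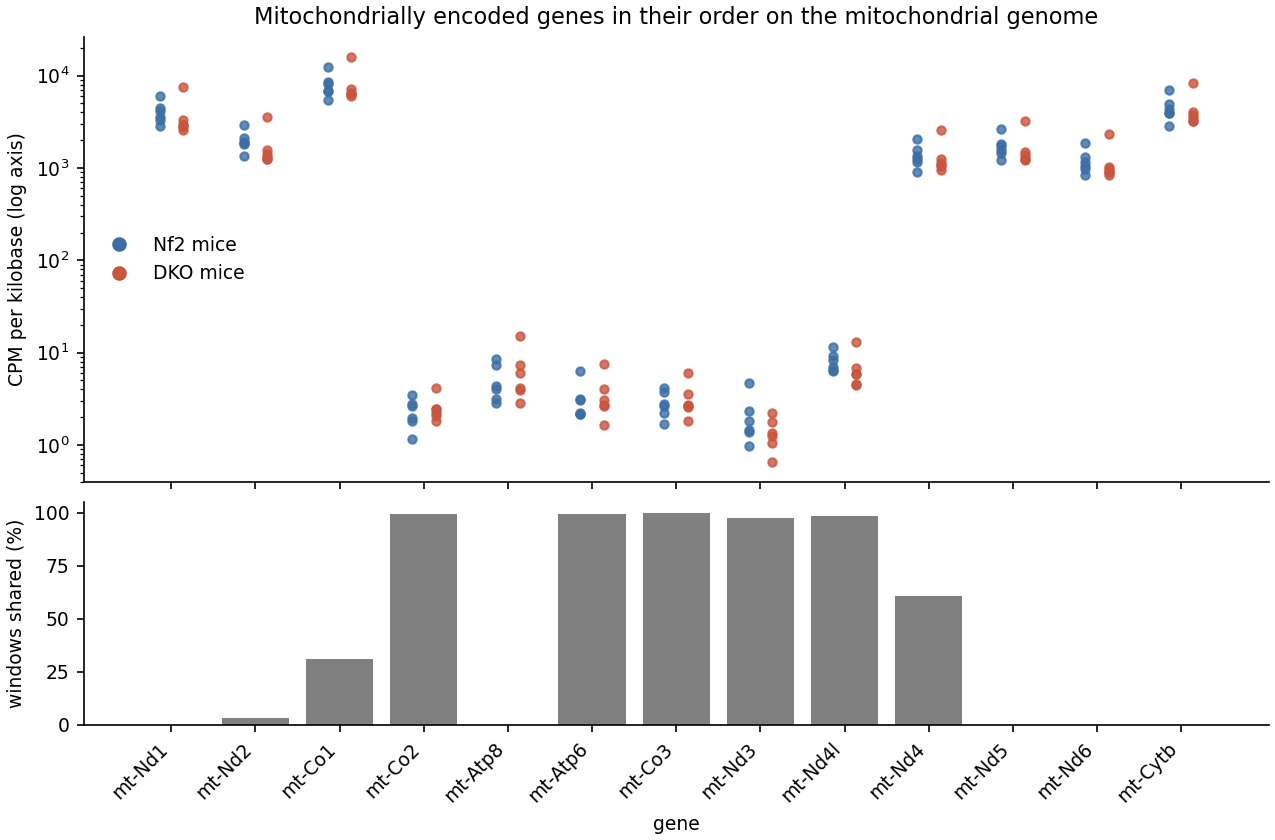
The upper panel plots CPM per kilobase of gene length (log axis) for the 13 mitochondrial genes in their genome order, 1 point per mouse, Nf2 in blue and DKO in red; the lower panel plots the percent of stretches of 100 bases of each gene that occur in a transcript of another annotated gene. The 6 neighbouring genes from mt-Co2 to mt-Nd4l lie far below the other 7, and 5 of these 6 have shares of 97.6% or more.

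The question the genotype comparison addresses is whether the added loss of Fak1 changes these genes in ganglia that already lack Nf2 in the Cre-expressing cells. No mitochondrial gene passed the test between the genotypes. The mt-Co1 level was 8483 CPM in the lowest Nf2 mouse, with a median of 11550 and 18980 in the highest, and 9403, 9900 and 24584 CPM in the DKO mice. The log2 fold change (DKO over Nf2) was -0.01 ± 0.27. For mt-Cytb, the Nf2 mice had 3286, 4787 and 7912 CPM (lowest, median, highest) and the DKO mice 3713, 4117 and 9633 CPM, a log2 fold change of -0.06 ± 0.26. The ranges overlap for both genes. Among the DKO mice, mouse 887 lies far above the other 5. Among the Nf2 mice, mouse 649 was highest by a smaller gap, for mt-Co1 with mouse 1048 next at 13195 CPM.

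Among the complex I subunits of the mitochondrial genome, the log2 fold changes of the abundant genes were -0.16 ± 0.27 for mt-Nd1, -0.21 ± 0.27 for mt-Nd2, -0.06 ± 0.26 for mt-Nd4, -0.09 ± 0.26 for mt-Nd5 and -0.05 ± 0.27 for mt-Nd6. Those of the barely counted genes were 0.12 ± 0.27 for mt-Co2, 0.15 ± 0.29 for mt-Co3, 0.17 ± 0.37 for mt-Atp6, 0.36 ± 0.42 for mt-Atp8, -0.65 ± 0.39 for mt-Nd3 and -0.29 ± 0.27 for mt-Nd4l. The value of mt-Nd3 was slightly above the pooled SD between mice (0.62 on the log2 scale) and rests on 6 to 48 reads per mouse. None of the 13 passed an adjusted p of 0.05 by edgeR or an unadjusted p of 0.05. By point estimate 9 were lower and 4 higher, with a median of -0.06 beside a median of 0.0047 over all 18295 genes tested.

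The spread between mice was wide. Mouse 887 had the highest level of the 12 mice for all 7 abundant mitochondrial genes, and mouse 649 the highest of the Nf2 mice for all 7. The sum over the 13 genes was 19774 CPM in the lowest Nf2 mouse, with a median of 27257 and 44329 in mouse 649. In the DKO mice it was 21446 CPM in the lowest, with a median of 22511 and 55773 in mouse 887, and the next highest DKO mouse was at 25073 CPM. The means were 29179 ± 8397 CPM in Nf2 and 28172 ± 13588 CPM in DKO (SD, n = 6 each). The highest of the 12 mice was 2.82 times the lowest. Leaving out mice 649 and 887 was chosen after their mitochondrial levels were seen, and it narrows the spread of the levels then compared. Without these mice the sums were 26149 ± 4391 CPM in Nf2 and 22651 ± 1494 CPM in DKO (SD, n = 5 each), with ranges of 19774 to 31368 and 21446 to 25073 CPM. The log2 fold change of mt-Co1 was then -0.17 and that of mt-Nd2 -0.44, the latter with the lowest adjusted p of the 13 genes, 0.0681 by edgeR. With only mouse 649 left out mt-Co1 was at 0.17, and with only mouse 887 left out at -0.34. The median log2 fold change of the 13 genes was -0.38 without mouse 887, 0.12 without mouse 649 and -0.22 without both. It was also above 0 without DKO mouse 886 (0.022), 914 (0.018) or 915 (0.0051), so its direction depended on which mouse was left out.

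The nuclear members varied far less. Their sum was 7371 CPM in the lowest Nf2 mouse, with a median of 7568 and 9575 in the highest, and 7159, 8002 and 8501 CPM in the DKO mice. The means were 8018 ± 873 CPM in Nf2 and 7935 ± 478 CPM in DKO (SD, n = 6 each), and the highest of the 12 mice was 1.34 times the lowest. The ratio of the mitochondrial to the nuclear sum therefore followed the mitochondrial sum, from 2.55 in DKO mouse 914 to 4.63 in mouse 649 and 6.75 in mouse 887. Its mean was 3.59 in Nf2 and 3.53 in DKO, with ranges of 2.68 to 4.63 and 2.55 to 6.75. Without mice 649 and 887 the ratio was 3.38 ± 0.433 in Nf2 and 2.89 ± 0.276 in DKO (SD, n = 5 each).

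**Figure D2:**
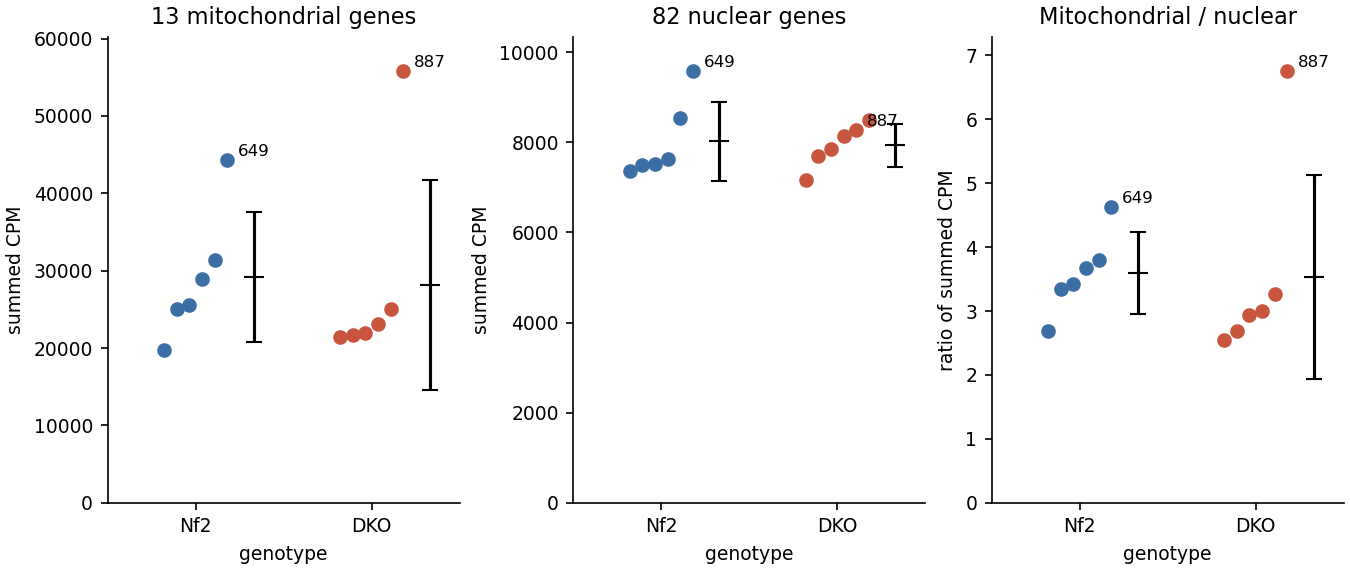
Summed CPM of the 13 mitochondrial genes (left), of the 82 nuclear genes (middle) and their ratio (right), 1 point per mouse in order of value, with the mean and SD of each genotype (n = 6) in black. Mouse 649 (Nf2) and mouse 887 (DKO) lie above all others in the mitochondrial sum and the ratio, while the nuclear sum spans only 7159 to 9575 CPM.

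The same pair of mice also stood apart in the nuclear members, though less and not in every gene. Of the 75 nuclear members with a mean of 10 CPM or more, 64 were highest in mouse 649 among all 12 mice, and 40 were highest in mouse 887 among the 6 DKO mice. Several of the most abundant subunits went the other way. Atp5b, the catalytic beta subunit of complex V, was at 622 CPM in mouse 649 and 594 CPM in mouse 887, and at 796 to 918 CPM in the other 10. Sdha, the flavoprotein of complex II, was at 224 and 230 CPM in these mice and at 266 to 344 CPM in the other 10. Both genes have long coding sequences, and this was followed up after their values were seen. Against the mean of the other 5 mice of its genotype, the 54 members with coding sequences under 600 bases had a median log2 ratio of 0.59 in mouse 649 and 0.28 in mouse 887, and the 21 longer ones 0.26 and 0.0035. Across these 75 genes, Spearman's rho of coding length with the ratio was -0.52 in either mouse, a description over genes that share the same libraries. These libraries held 23479473 and 21129191 counts, the latter the lowest of the 12. The summed level of the 5 erythroid markers was 36.4 CPM in mouse 649 and 59.7 CPM in mouse 887, against 129 to 763 CPM in the other 10, with no marker at 0. The 12 sensory neuron markers summed to 15487 and 14119 CPM in these mice, within or just above the 11672 to 14883 CPM of the others. Neither the counts of genes highest in these mice nor the trend with coding length were computed over all genes. They may therefore not be particular to the members. The part of library length bias, depth or blood content in these values was not tested.

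Per kilobase, the nuclear members with the highest levels were Cox6a1 at 264 CPM, Atp5a1 (the alpha subunit of complex V) at 206, Cox8a at 198, Atp5b at 195 and Cox4i1 at 190, and the lowest was Cox8c, a testis isoform, at 0.0071. Thus even the highest nuclear level per kilobase was below that of each of the 7 well-counted mitochondrial genes. The order among the nuclear members depends on the annotated exon length, which was 702 bases for Cox6a1 and 4237 for Atp5b. Before division by length, Atp5b had a mean of 826 CPM and Cox6a1 186 CPM. Of the abundant nuclear members, Uqcrc2, a core subunit of complex III, was the steadiest, with the highest mouse 1.18 times the lowest, and the median over the 75 genes was 1.58. The widest range was that of Ndufs5, at 6.34 to 37.3 CPM. It was at 37.3 CPM in Nf2 mouse 649, 30.6 in DKO mouse 914 and 25.0 in DKO mouse 885, and at 6.34 to 12.6 CPM in the other 9, and 12.7% of its stretches of 100 bases occur in the transcript of BC002163, so its count is uncertain.

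No nuclear member passed an adjusted p of 0.05 in the genotype comparison by edgeR, where 172 of the 18295 genes tested did (0.94%; 68 higher in DKO, 0.372%, and 104 lower, 0.568%). None had non-overlapping ranges in the genotypes, against 1.95% of all genes. At an unadjusted p of 0.05 there were 3 nuclear members, Cox6a2, Cox7a1 and Cox8b, and with all members 3 of 93, where 14.9% of all genes passed. All 3 were lower in DKO, where 7.96% of all genes were lower at this level, and no member was higher, where 6.91% were. The nuclear median was -0.05, with 64 lower and 16 higher by point estimate, where 49.0% of all genes were lower. The estimates were small, and 75 of the 80 lay within 0.15 of 0 on the log2 scale. Their standard errors ran from 0.054 to 0.64 with a median of 0.12. Without mouse 649 the nuclear median was 0.04, and without mice 649 and 887 it was -0.0055, so the direction of the median changed with 1 mouse.

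In the main fit, the nuclear medians of the single complexes ran from -0.07 to 0.03 on the log2 scale. In complex I, 27 of 35 nuclear subunits were lower and 8 higher, with a median log2 fold change of -0.05. Ndufs1, the largest iron-sulfur subunit, was at 122, 145 and 157 CPM in Nf2 and 132, 151 and 159 CPM in DKO (lowest, median, highest), a log2 fold change of 0.05 ± 0.06. That of Ndufv1, which binds NADH, was -0.05 ± 0.06. The accessory subunits Ndufb2, Ndufb5 and Ndufb9 had 0.12 ± 0.09, 0.07 ± 0.07 and -0.14 ± 0.09. In every one of these genes the ranges of the genotypes overlap.

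Complex II had a median of 0.03 over its 4 subunits. Sdha was at 0.07 ± 0.11, the iron-sulfur subunit Sdhb at -0.01 ± 0.08, and the membrane anchors Sdhc and Sdhd at -0.14 ± 0.10 and 0.09 ± 0.07 on the log2 scale. In complex III, 7 of 8 were lower with a median of -0.02. The log2 fold changes were -0.12 ± 0.07 for Uqcrc1, -0.02 ± 0.05 for Uqcrc2 and -0.05 ± 0.06 for Uqcrfs1, the Rieske iron-sulfur protein. In complex V, 15 of 16 were lower with a median of -0.07, and the core subunits Atp5a1, Atp5b and Atp5c1 had -0.0042 ± 0.07, 0.03 ± 0.11 and -0.06 ± 0.06. None of these genes passed an unadjusted p of 0.05, and of them only Uqcrc1 differed by more than the pooled SD between mice (0.11 on the log2 scale).

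**Figure D3:**
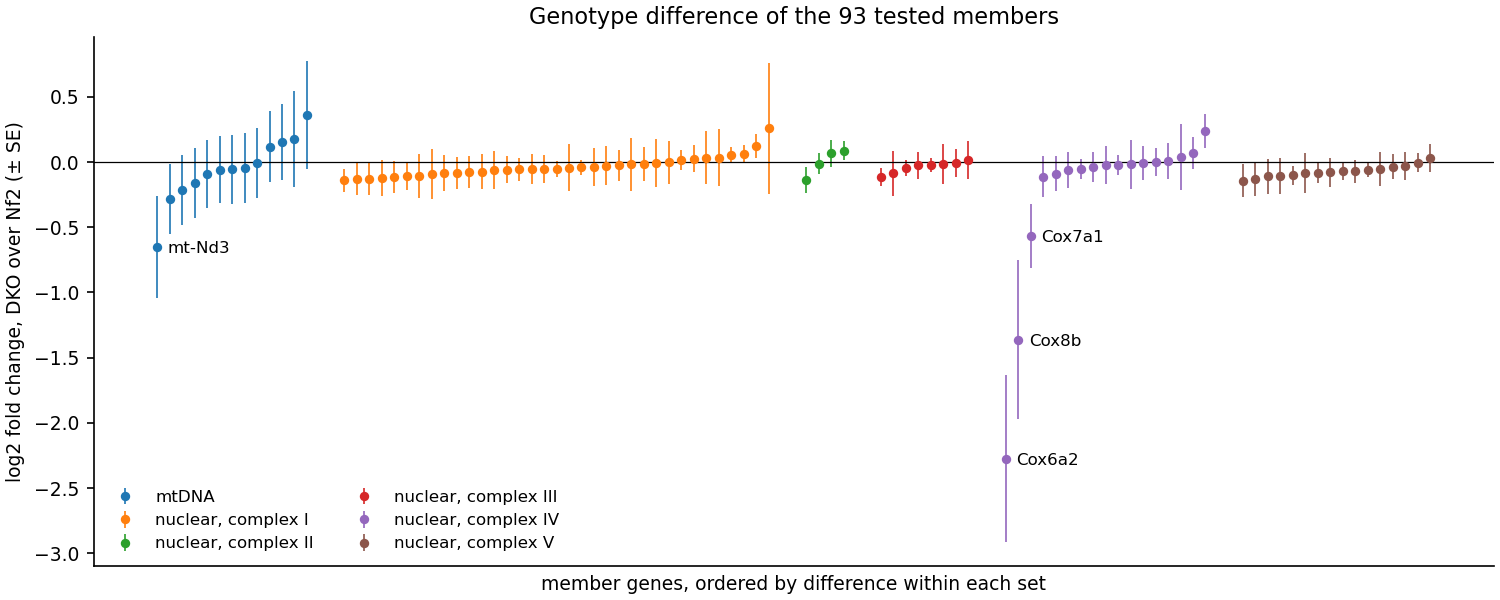
Log2 fold change (DKO over Nf2) with its standard error from edgeR for the 93 tested members, 1 point per gene, ordered within the mitochondrial genes (mtDNA) and the nuclear genes of each complex. Of the 80 nuclear genes 75 lie within 0.15 of 0; the other 5 are the complex IV isoforms Cox6a2, Cox8b, Cox7a1 and Cox6b2, and Ndufs5 of complex I.

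Among the nuclear members, the 3 largest differences were in the muscle isoforms of complex IV. Cox6a2, the heart and skeletal muscle form of subunit 6A (chr7:128205435-128206387), was at 0.213 CPM in the lowest Nf2 mouse, with a median of 2.59 and 4.37 in the highest, and at 0.170, 0.422 and 0.950 CPM in the DKO mice. The Nf2 mice were split, with 884, 918, 1048 and 1049 at 2.58 to 4.37 CPM and 649 and 702 at 0.213 and 0.300 CPM, inside the DKO range. The counts behind these values were 5 to 128 reads per mouse in Nf2 and 4 to 24 in DKO. The log2 fold change was -2.28 ± 0.64, with an unadjusted p of 0.00332 and an adjusted p of 0.112 by edgeR. It passed the threshold with DESeq2 (adjusted p 0.0125) and without Nf2 mouse 649 (-2.51, adjusted p 0.0462 by edgeR), and over all alternatives its adjusted p ran from 0.0125 to 0.653. By DESeq2 it was the only member of 93 past the threshold, where 4.54% of all genes were.

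Cox8b, the muscle form of subunit 8 (chr7:140898945-140900446), was at 0.113, 0.850 and 1.64 CPM in Nf2 (lowest, median, highest) and 0.0426, 0.334 and 0.777 CPM in DKO, a log2 fold change of -1.36 ± 0.61 with an adjusted p of 0.312 by edgeR. Cox7a1, the muscle form of subunit 7A (chr7:30184144-30186078), was at 2.17, 3.55 and 4.81 CPM in Nf2 and 1.11, 2.46 and 3.02 CPM in DKO, a log2 fold change of -0.57 ± 0.25 with an adjusted p of 0.296. In both genes the genotypes overlap, and the highest Nf2 mouse for Cox7a1 was mouse 649, the lowest Nf2 mouse for Cox6a2.

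Markers of skeletal muscle were set beside these isoforms. All 14 muscle markers were lower in DKO by point estimate, with a median log2 fold change of -2.09. At an unadjusted p under 0.05 by edgeR, 7.96% of all genes were lower in DKO. Of the muscle markers, 12 were lower at this level and 0 passed the adjusted threshold of edgeR. Their summed level was 59.8, 839 and 1217 CPM in the Nf2 mice (lowest, median, highest) and 70.2, 154 and 433 CPM in the DKO mice, and no marker was at 0. The list holds Pvalb, which proprioceptive sensory neurons also express, at 38.8 to 80.9 CPM per mouse. Without it, an alternative chosen after seeing the data, the sums were 20.6, 784 and 1136 CPM in Nf2 and 26.2, 106 and 382 CPM in DKO, with a median log2 fold change of -2.09. The 4 Nf2 mice with high Cox6a2 had marker sums of 773 to 1217 CPM, while mice 649 and 702 had 198 and 59.8 CPM (123 and 20.6 CPM without Pvalb). Cox7a1 did not follow the marker sums in the Nf2 mice. It was highest in mouse 649, at 4.81 CPM with a marker sum of 198 CPM. Its lowest Nf2 level was in mouse 1049, at 2.17 CPM with a marker sum of 967 CPM. Markers of fat, where Cox7a1 and Cox8b are also expressed in the brown type, summed to 8.95 to 14.6 CPM in Nf2 and 6.72 to 11.9 CPM in DKO, and Ucp1, the defining gene of brown fat, was at 1.13 CPM or less in every mouse. Whether muscle carried over at dissection accounts for the isoform levels was not tested.

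**Figure D4:**
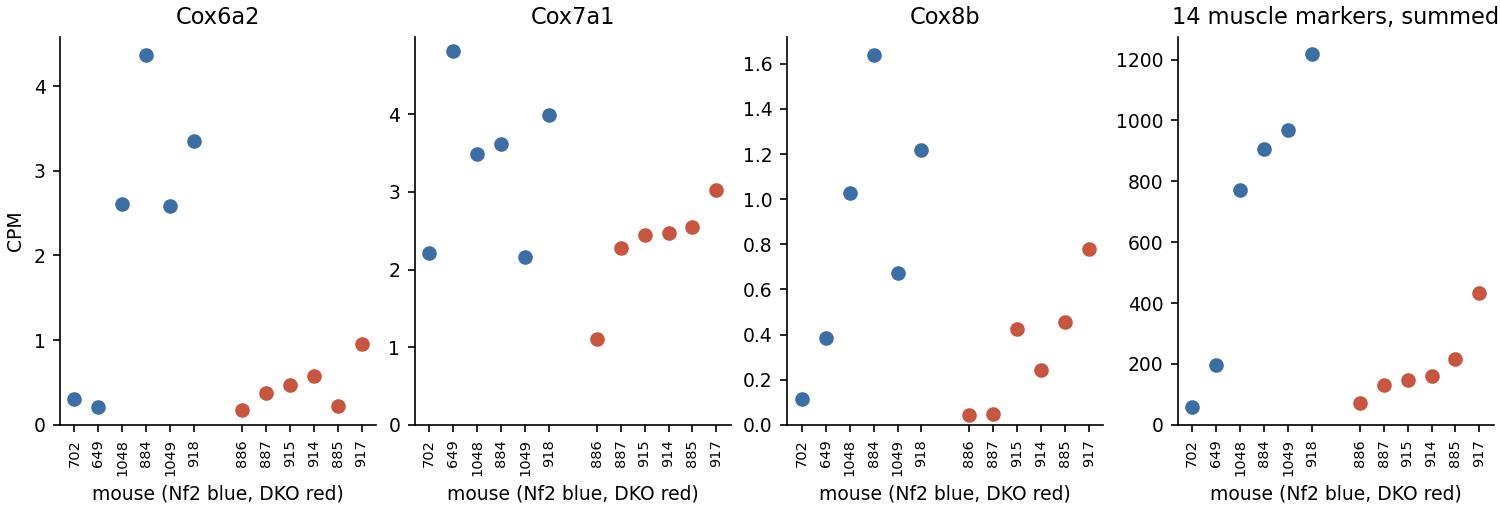
CPM of the muscle isoforms Cox6a2, Cox7a1 and Cox8b and the summed CPM of 14 skeletal muscle markers in each of the 12 mice, with the mice of each genotype (Nf2 blue, DKO red) ordered by the marker sum. Cox6a2 is at 2.58 to 4.37 CPM in the 4 Nf2 mice with the highest marker sums and under 1 CPM in the other 8 mice.

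The partners of these isoforms in most tissues were far more abundant and differed little. Cox6a1 was at 150, 175 and 277 CPM in Nf2 and 146, 175 and 236 CPM in DKO, a log2 fold change of -0.11 ± 0.16. The log2 fold changes were -0.04 ± 0.11 for Cox8a and -0.00094 ± 0.11 for Cox7a2. Outside these pairs, Cox7a2l, a supercomplex assembly protein, had -0.02 ± 0.08. Cox7b, the partner of Cox7b2, had -0.0046 ± 0.13. Subunit 4 was represented by Cox4i1 at 238 to 423 CPM (-0.09 ± 0.14), and Cox4i2, its lung isoform, by 0.561 to 1.45 CPM (0.04 ± 0.25). Cox6b1 was at 83.8 to 141 CPM (0.01 ± 0.14). Its testis isoform Cox6b2 was at 4.65, 5.83 and 7.45 CPM in Nf2 and 6.09, 7.17 and 8.43 CPM in DKO, and with 0.24 ± 0.13 (adjusted p 0.421 by edgeR) it had the lowest unadjusted p of the members with higher estimates in DKO. Cox7b2 and Cox8c, testis isoforms too, were at 0 to 11 and 0 to 1 reads per mouse.

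Within the mitochondrial transcripts, the make-up of the pool was steadier than its size. Each gene was expressed as its percent of the counts of the 13 genes, a share that does not depend on the library total and that was given no test. The share of mt-Co1 was 41.3 to 43.0% in the Nf2 mice (42.4 ± 0.635%) and 43.5 to 44.6% in the DKO mice (44.2 ± 0.440%). The share of mt-Nd2 was 6.78 to 7.61% in Nf2 (7.11 ± 0.355%) and 5.92 to 6.62% in DKO (6.28 ± 0.305%; SD, n = 6 each). For these genes, 2 of 13 (15.4%), the genotypes did not overlap, whereas the other 11 shares did. Such shares exist only for the 13 genes, so no rate over all genes can be set beside this count. In CPM the genotypes overlapped for both mt-Co1 and mt-Nd2.

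In these shares mouse 649 had 42.8% mt-Co1 and 6.78% mt-Nd2, the lowest mt-Nd2 share of the Nf2 mice, and mouse 887 had 44.1% and 6.62%, the highest mt-Nd2 share of the DKO mice. The difference, DKO minus Nf2, was 1.74 percentage points for mt-Co1, and 1.52 to 1.87 with each mouse left out in turn. For mt-Nd2 it was -0.83 points, and -0.89 to -0.73 with each mouse left out. Without mice 649 and 887 these differences were 1.83 and -0.96 points. The shares of 1 mouse sum to 100%, so a higher share of 1 gene lowers those of the others. Of the other shares, mt-Nd1 was 13.3 ± 0.420% in Nf2 and 12.4 ± 1.30% in DKO, and mt-Cytb 17.6 ± 0.528% and 17.8 ± 0.777%, with overlapping ranges. The copies in the nuclear genome touch these shares, since 30.8% of mt-Co1 and 3.19% of mt-Nd2 is shared with annotated copies, and their part was not tested.

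**Figure D5:**
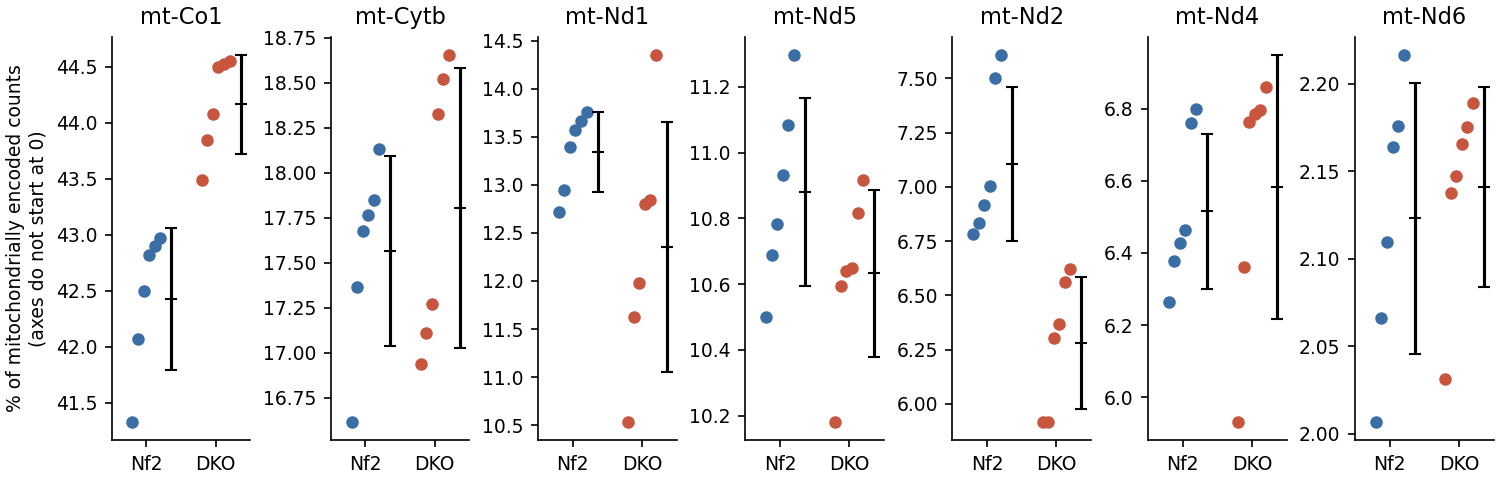
Percent of the counts of the 13 mitochondrial genes taken by each of the 7 abundant genes, 1 point per mouse in order of value, with the mean and SD of each genotype (n = 6) in black; the axes do not start at 0. The genotypes do not overlap for mt-Co1 (41.3 to 43.0% in Nf2, 43.5 to 44.6% in DKO) and mt-Nd2 (6.78 to 7.61% and 5.92 to 6.62%), and they overlap for the other 5.

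The sexes were compared as labelled. Between labelled males and females, with the genotype as a covariate, 3 of 18295 genes passed an adjusted p of 0.05 by edgeR (0.0164%), and no member did, nor did a member pass an unadjusted p of 0.05. Without mouse 702, 10 of 18513 genes passed, and again no member at either level. For the interaction of genotype with labelled sex 2 genes passed (0.0109%) and again no member at either level. Without mouse 702, 1 member had an unadjusted p under 0.05 in the interaction, Ndufc2 (-0.45 ± 0.20, adjusted p 0.772). The mitochondrial median of the genotype difference was -0.40 in labelled males and 0.23 in labelled females, and the nuclear median -0.18 and 0.05. Mouse 649 is a labelled male and mouse 887 a labelled female.

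The other genes of the pathway were read from lists by function. Of the assembly factors, 15 of complex I and 30 of complexes II to V were tested, and none passed the threshold of edgeR. Uqcc1, an assembly factor of complex III, came nearest, at 49.3 ± 4.31 CPM in Nf2 and 61.1 ± 8.24 CPM in DKO (SD, n = 6 each), a log2 fold change of 0.29 ± 0.09 with an adjusted p of 0.138. Of 25 genes that replicate, transcribe or translate mitochondrial DNA or govern mitochondrial biogenesis, 17 had higher and 8 lower estimates and none passed. Tfam, which packages and transcribes mitochondrial DNA, had a log2 fold change of -0.04 ± 0.06, the coactivator Ppargc1a 0.13 ± 0.06 (adjusted p 0.285 by edgeR) and Nrf1, whose motif is marked in the Cox6a1 promoter above, 0.02 ± 0.08. Of 14 chain components outside the naming rule, such as cytochrome c and the uncoupling proteins, none passed, and Ucp2 had 0.39 ± 0.11 with an adjusted p of 0.107. Of 19 genes of the tricarboxylic acid cycle and pyruvate dehydrogenase, 1 passed, where 0.94% of all genes did. Suclg2, the GTP-forming subunit of succinyl-CoA synthetase, fell from 34.6 ± 1.78 CPM in Nf2 to 27.6 ± 1.43 CPM in DKO (SD, n = 6 each), a log2 fold change of -0.34 ± 0.06 with an adjusted p of 0.0138 by edgeR, while the other 18 did not pass.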

How the data were processed

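Dorsal root ganglia of 12 mice (6 Nf2, 6 DKO, 1 library per mouse) were sequenced by a commercial provider after RNeasy Plus extraction with DNase, poly(A) selection and NEBNext Ultra II library preparation. The deposited values are raw gene counts, which the authors made, per the submitters' processing notes, with Trimmomatic 0.36, STAR 2.5.2b and featureCounts of Subread 1.5.2 on GRCm38. Read length, strand and the handling of reads with several matches are not given in the sources used here.

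CPM was computed over the library total, and CPM per kilobase over the union of annotated exons (GENCODE M21, in which all 95 member IDs were found with the same symbol). Of 49315 genes, 18295 passed filterByExpr. Genotypes were compared with edgeR 4.0.16 (TMM factors, quasi-likelihood F test, Benjamini-Hochberg over all genes tested, threshold 0.05) in R 4.3.3, and DESeq2 1.42.0 was an alternative. On simulated counts of 18071 genes with the genotype design, 89% of 200 genes changed by a factor of 2 were recovered, and 2.73% of the calls were false. The changed genes were drawn only from those above a floor of expected counts, and each gene was simulated independently. The recovered share therefore does not cover genes at few reads, smaller changes, or genes that move together between mice. Sums, ratios and shares were given no test. The depth ranged from 21129191 to 41250329 counts, and the number of mice limits the precision more than the counting error, except for genes under about 1 CPM. Ndufa4 was placed in complex IV. Copies were sought as identical stretches of 100 bases, on either strand, in all GENCODE M21 transcripts, and motifs on both strands of RefSeq promoters of GRCm38.p6.

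The members and gene lists were chosen with earlier results of these data known. The genes named were all mitochondrial members, the tissue-restricted subunit isoforms and their partners, core subunits of each complex (1 is not reported here), members past the threshold, the 5 nuclear members with the smallest unadjusted p in each direction, those with the highest and lowest CPM per kilobase, and at most 3 genes of each other list besides those past the threshold. Ndufs5, Ndufc2 and the genes named in the account of mice 649 and 887 were added after their values were seen. Alternatives were other scaling factors, totals without mitochondrial genes, other filters, DESeq2, labelled sex as a covariate or each sex alone, and each mouse left out. All 12 sample columns were used, and 0 columns belonged to no sample.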

Additional observations from a re-analysis of the deposited data

Results flagged for a closer look

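In each genotype, the highest or lowest mouse was set against its nearest neighbour for 46 measures (92 groups of 6 mice), with a gap that exceeded Dixon's 95% critical share of the range taken as apart. Chance gives about 1 in 20, or 4.6, and 22 were found. The measures share libraries, so the 22 are not independent.

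Mouse 887 stood apart from the other DKO mice in 15 of the 22. These were the mitochondrial sum (55773 CPM) and its ratio to the nuclear sum (6.75). They also took in mt-Nd1 (7140 CPM), mt-Nd2 (3693 CPM), mt-Co1 (24584 CPM), mt-Nd4 (3547 CPM), mt-Nd5 (5935 CPM), mt-Nd6 (1221 CPM) and mt-Cytb (9633 CPM). Among the barely counted genes they were mt-Co2 (2.84 CPM), mt-Atp8 (3.12 CPM) and mt-Nd4l (3.88 CPM), all high in this mouse. On the low side were Sdha (230 CPM), Uqcrc2 (122 CPM) and Atp5b (594 CPM).

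Mouse 649 stood apart from the other Nf2 mice in 5: it was high for mt-Atp6 (4.26 CPM), Cox6b1 (141 CPM), Cox8a (163 CPM) and Ndufb9 (83.9 CPM), and low for Atp5b (622 CPM). Both mice were thus low for Atp5b. The remaining pair were mt-Nd3 in Nf2 mouse 884 (1.64 CPM, 48 reads) and Cox8c in DKO mouse 915 (0.0388 CPM, 1 read).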

How the results depend on the processing

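The number of genes past the threshold (172) was 831 with DESeq2, 2 in labelled males, 57 in labelled females, 9 in labelled males without mouse 702, 314 without mice 649 and 887 (the last 2 chosen after seeing the data), and 81 to 217 with each mouse left out. The member count (0) was 1, Cox6a2, with DESeq2 and in labelled females (-3.45, adjusted p 0.0141 by edgeR), and 0 to 1 with each mouse left out. In labelled males without mouse 702, with 2 Nf2 mice left, the mitochondrial median was -0.65 and the nuclear median -0.29, and with each mouse left out they were -0.38 to 0.12 and -0.12 to 0.04. The cause of these changes was not tested, though the subsets hold fewer mice. No paired analysis was possible because the mouse numbers are not shared between the genotypes. Genes at a few reads per mouse, such as mt-Nd3 and Cox8b, are limited by depth, and stretches of 50 or 150 bases (added after seeing the data) left the shared percent of the 5 copied low genes at 97.0 or more.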
